A study of Mus musculus with 11 samples.

Results

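The genes described here are 47 genes of mitosis and proliferation: the transcription factors Foxm1 and Mybl2, mitotic cyclins and kinases, the spindle checkpoint, the kinetochore, spindle motors, condensin and the machinery of anaphase. Their members were taken from a fixed list of gene symbols, chosen with earlier results of these data known. Every open chromatin region (peak) that the authors assigned to one of these genes was used, in all 3 comparisons of the study. A peak was found for 43 of the 47 genes. They had 114 of the 94410 peaks in the authors' deposited tables, and 45 of these peaks were annotated as promoter, which in these tables means within 3 kb of a gene's start. The promoter peaks belonged to 40 genes. Foxm1, Smc2, Smc4 and Kif15 had no peak, and Anln, Kif4 and Ncapg had peaks but none at a promoter.

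Many of these genes are known to be transcribed late in the cell cycle and to be largely silent in quiescent cells, though not all of them. The DREAM complex represses such late genes in quiescence, and complexes of MYBL2 and FOXM1 with MuvB activate them in cycling cells. Many do so through a short promoter element called the cell cycle homology region (CHR), which often lies near boxes bound by the factor NF-Y. Most haematopoietic stem cells (HSCs) of adult bone marrow are quiescent, and open promoters are common at genes that are not being transcribed, so accessibility is not a measure of expression.

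Open chromatin was profiled by ATAC-seq, which uses a transposase to cut and tag accessible DNA, in HSCs purified from mouse bone marrow at steady state. All 11 libraries shared the genotype Gfplc3/Gfplc3, a GFP-tagged LC3 that reports autophagy because autophagy degrades it. The groups were 5 libraries of young HSCs, which were unfractionated, 3 of old HSCs with low GFP (AThi, labelled as autophagy engaging) and 3 of old HSCs with high GFP (ATlo), the old libraries being 3 pairs of an AThi and an ATlo library. The comparisons ask how AThi and ATlo HSCs each differ from young ones and from each other. Isolation and transposition took 2 days, and the day of each library, the ages in numbers, the sex and the number of animals per library are not given in the labels. Both comparisons with young HSCs used the same 5 young libraries, and in both of them age cannot be told apart from fractionation. The p-values therefore reflect how much these libraries varied, which may in part be technical.

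The tables held no values per library, so depth per library is unknown and no spread between libraries could be shown. Group levels given below were computed from the authors' mean normalised count, the fold changes and the numbers of libraries, and are approximate. All 8 HSC marker genes examined had a promoter peak, with mean normalised counts of 28.6 to 414 in the authors' deposited tables (median 159). Of 20 markers of B cells, T cells, neutrophils, erythroid cells and endothelial or stromal cells, 11 had a promoter peak, with mean normalised counts of 6.55 to 130 (median 61.0) in the same deposited tables. All 4 endothelial and stromal markers were among these 11, with a median of 81.6. Cd79a, Ms4a1, Cd3e, Cd3g, Cd8a, S100a8, Camp, Hba-a1 and Alas2 had none. The part of other cell types in the results was not tested. In bulk libraries, fewer cells with an open site and less opening per cell cannot be told apart.

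Promoter sequences are shown for the 6 genes that had the smallest p-values among the strongest promoter peaks, 2 for each comparison. Nuf2 and Ttk had them in AThi against young HSCs, Top2a and Kif11 in ATlo against young HSCs, and Kif2c and Plk1 between the old fractions. Each run is the 250 bases before the start site, 5′ to 3′ on the gene's own strand, from RefSeq, with coordinates of GRCm38.p6, a different build from that of the peaks. Capitals mark the CHR core, TTTGAA or TTCGAA, and the NF-Y box, CCAAT, on either strand.
Nuf2 (chr1:169531465-169531714, minus strand): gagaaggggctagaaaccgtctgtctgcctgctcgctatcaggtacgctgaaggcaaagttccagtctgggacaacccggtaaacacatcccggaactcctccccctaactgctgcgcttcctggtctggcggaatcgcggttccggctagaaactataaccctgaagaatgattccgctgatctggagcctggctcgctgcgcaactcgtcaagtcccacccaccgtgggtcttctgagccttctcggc
Ttk (chr9:83834439-83834688, plus strand): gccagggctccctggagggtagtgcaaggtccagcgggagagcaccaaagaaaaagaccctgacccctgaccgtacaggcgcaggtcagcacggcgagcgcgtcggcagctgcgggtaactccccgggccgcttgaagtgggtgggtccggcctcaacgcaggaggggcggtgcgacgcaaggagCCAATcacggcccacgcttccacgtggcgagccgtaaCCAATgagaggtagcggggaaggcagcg
Top2a (chr11:99024190-99024439, minus strand): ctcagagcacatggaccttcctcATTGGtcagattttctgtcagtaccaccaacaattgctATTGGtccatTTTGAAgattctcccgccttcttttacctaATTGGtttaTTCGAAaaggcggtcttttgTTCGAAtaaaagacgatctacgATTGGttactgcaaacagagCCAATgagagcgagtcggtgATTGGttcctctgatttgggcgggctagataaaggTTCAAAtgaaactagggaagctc
Kif11 (chr19:37376132-37376381, plus strand): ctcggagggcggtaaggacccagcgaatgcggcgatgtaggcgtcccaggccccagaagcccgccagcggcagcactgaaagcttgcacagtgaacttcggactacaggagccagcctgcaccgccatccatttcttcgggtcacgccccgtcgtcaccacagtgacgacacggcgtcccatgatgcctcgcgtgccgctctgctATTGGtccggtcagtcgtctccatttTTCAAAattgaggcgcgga
Kif2c (chr4:117178773-117179022, minus strand): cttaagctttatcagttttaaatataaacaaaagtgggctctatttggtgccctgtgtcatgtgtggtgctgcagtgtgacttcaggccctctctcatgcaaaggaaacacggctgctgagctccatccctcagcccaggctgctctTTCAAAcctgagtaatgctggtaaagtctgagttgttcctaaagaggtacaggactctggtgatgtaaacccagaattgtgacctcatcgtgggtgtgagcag
Plk1 (chr7:122159185-122159434, plus strand): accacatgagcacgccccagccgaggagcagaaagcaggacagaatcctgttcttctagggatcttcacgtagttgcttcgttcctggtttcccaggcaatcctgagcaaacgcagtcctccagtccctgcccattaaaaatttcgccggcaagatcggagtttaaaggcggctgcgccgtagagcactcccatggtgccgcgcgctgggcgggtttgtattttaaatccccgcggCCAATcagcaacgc

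Top2a, which encodes the topoisomerase that untangles chromosomes, carried 4 CHR cores and 6 CCAAT boxes. Kif11 had a CCAAT box beginning 45 bases before the start and a CHR core beginning 19 bases before it. Ttk had 2 CCAAT boxes, at 65 and 28 bases before the start, and its CHR core lay 8 bases after the start, outside the bases shown. In Plk1 the CCAAT box was 14 bases before the start and the CHR core 31 bases after it, also outside the bases shown. The Nuf2 window held neither motif. In Kif2c a single CHR core lay 103 bases before the start, with no CCAAT box. The Kif2c window had a ratio of observed to expected CpG of 0.118, the lowest of the members' windows (median 0.862). Whether the RefSeq start is the start used by the authors, and whether a window lies under the gene's promoter peak, was not tested.

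Of the 47 genes, 38 were in the RefSeq promoter table, which covers 250 bases before to 50 bases after each start. A CHR core on either strand was present in 28 of the 38 windows (73.7%), against 18.2% of the windows of 17492 protein-coding genes and 19.4% of all 27025 windows of the table. CCAAT was present in 27 of the 38 (71.1%), against 39.0% of protein-coding and 37.9% of all windows. Both motifs stood in 24 windows (63.2%), against 7.43% and 7.70%. A CHR core within 50 bases of the start was found in 25 (65.8%), against 4.41% and 5.29%. CCAAT and the CHR core can share at most an end base. The windows were also rich in CpG: the median ratio of observed to expected CpG was 0.862, against 0.576 for protein-coding genes, and the median GC content was 59.7% against 56.3%. In the 20 genes with such a core and a promoter peak the median log2 change was -0.29 in AThi and -0.28 in ATlo against young HSCs, and in the 13 without one it was -0.19 and -0.29, as computed from the authors' deposited tables. A motif match is a description of letters and not a binding site.

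The promoters of the mitosis genes were open in these HSCs. Taking the strongest promoter peak of each of the 40 genes, the median of the mean normalised count in the authors' deposited tables was 222, from 75.4 at Espl1, the separase that cuts cohesin at anaphase, to 448 at Mad2l1, a spindle checkpoint protein. Of all 22890 promoter peaks, 78.3% had a lower mean than this median. Those peaks include weaker ones besides a gene's strongest, which raises this share. The peaks lay over the start site in 39 of 40 genes, and the Ccna2 peak lay 258 bp from it. Since the size of a change varies with the level, the 40 promoters were set beside the 11749 promoter peaks with a mean normalised count between 75.4 and 448, called promoters of the same range below.

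In old AThi HSCs, 33 of the 40 promoters had a log2 change below 0 against young HSCs, with a median of -0.26 and a range of -0.73 to 0.40 in the authors' deposited table. Nuf2, Ttk and Mki67 fell (adjusted p under 0.05, the authors' DESeq2 Wald test with Benjamini-Hochberg adjustment) and none rose. The 3 lower calls are 7.5% of the 40 promoters, and 5.63% of promoters of the same range, 4.44% of all promoter peaks and 2.74% of all peaks were called lower. Higher calls were made at 7.38% of promoters of the same range, 7.12% of all promoter peaks and 7.57% of all peaks. At an unadjusted p under 0.05 there were 15 of the 40, of which Kif2c was above 0, against 30.4% of promoters of the same range and 22.4% of all peaks. Promoters of the same range were also shifted down, with a median of -0.13 and 7867 of 11749 below 0. Of the 40 promoters, 29 lay below that median.

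In old ATlo HSCs, 38 of the 40 promoters were below 0 against young HSCs, with a median of -0.27 and a range of -0.73 to 0.21 in the authors' deposited table. Top2a, Kif11, Nuf2, Mki67, Kif20a and Ncapd2 fell in the same Wald test, and none rose, while 17 of the 40 had an unadjusted p under 0.05, against 35.6% of promoters of the same range and 21.7% of all peaks. The 6 lower calls are 15% of the promoters, and 8.21% of promoters of the same range, 5.98% of all promoter peaks and 2.54% of all peaks were called lower. Higher calls were made at 5.04%, 5.69% and 6.88% of these, respectively. Promoters of the same range had a median of -0.19, with 8694 of 11749 below 0, and 29 of the 40 promoters lay below that median.

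These calls depended on the scaling. Of the 9 lower calls in both fractions, 5 were also made when log2 changes were centred on the median of all peaks (Nuf2 in AThi, and Top2a, Kif11, Nuf2 and Mki67 in ATlo HSCs). When log2 changes were centred on the median of promoters of the same range, none of the 40 promoters was called lower in either fraction, and Kif2c was called higher in AThi HSCs (adjusted p = 0.0245, same Wald test recomputed from the deposited values). The median of the 40 was then -0.13 in AThi and -0.07 in ATlo HSCs. The same centring turned the calls among promoters of the same range from 867 higher and 661 lower to 1294 higher and 159 lower in AThi HSCs, and from 592 higher and 965 lower to 1174 higher and 82 lower in ATlo HSCs. The falls below are therefore falls on the authors' scale.

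**Figure D1:**
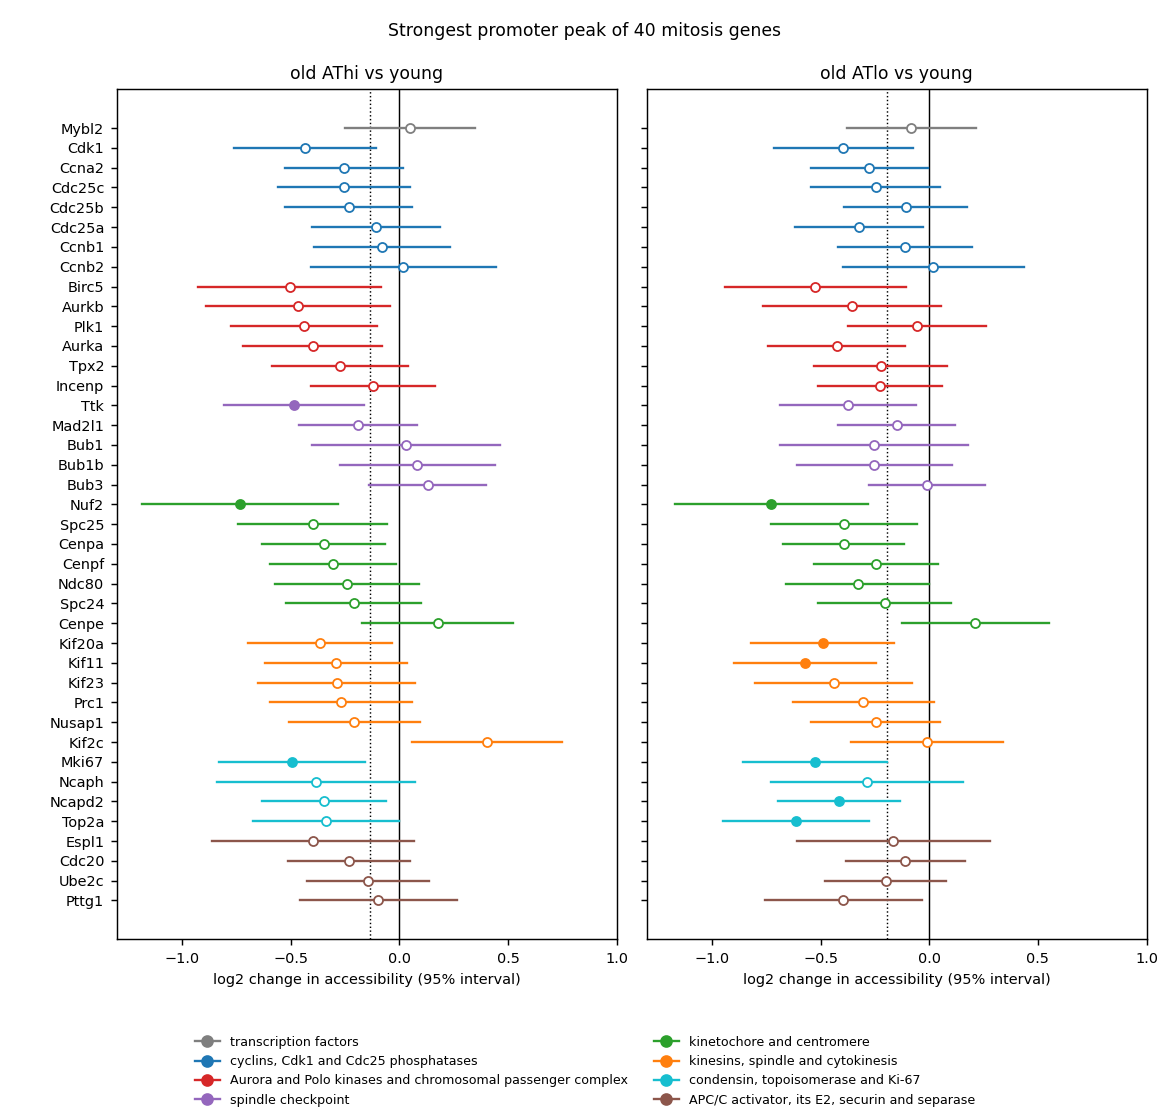
Log2 change in accessibility (x axis) of the strongest promoter peak of 40 mitosis genes (y axis, grouped by role) in old AThi (left) and old ATlo HSCs (right) against young HSCs. Points are the authors' log2 changes, bars 95% intervals (1.96 SE), filled points have an adjusted p under 0.05, and the dotted line is the median of promoters of the same range (-0.13 and -0.19). Of the points, 33 lie below 0 on the left and 38 on the right, and those of Nuf2 and Mki67 are filled on both sides.

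**Figure D2:**
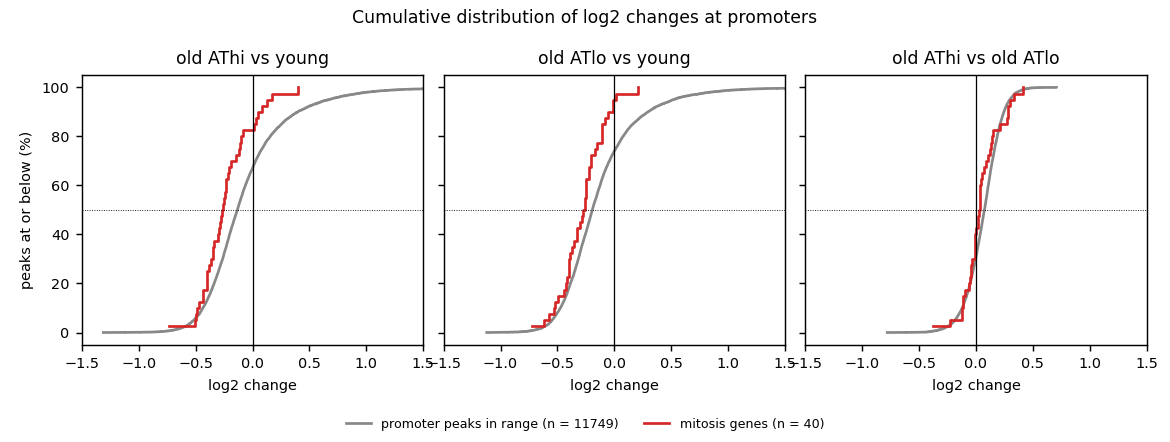
Cumulative percentage (y axis) of log2 changes (x axis) for the 40 strongest promoter peaks of mitosis genes (red) and 11749 promoter peaks of the same range of mean normalised count (grey), in the 3 comparisons. The x axis stops at -1.5 and 1.5, outside which lie 0.604% of the grey peaks in the left panel and 0.357% in the middle one. The red curve crosses the 50% line at -0.26, -0.27 and 0.03, and the grey one at -0.13, -0.19 and 0.07.

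Among the transcription factors, Mybl2, the B-MYB subunit that activates mitotic genes with MuvB, had a log2 change of 0.05 in AThi and -0.08 in ATlo HSCs in the authors' deposited tables, with SEs of 0.15. Its computed group levels were 255 in young, 264 in AThi and 240 in ATlo HSCs, differences within the error. Foxm1, its partner in late G2, had no peak of its own.

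None of the 7 promoters of the cyclins, Cdk1 and the CDC25 phosphatases passed the test in either fraction. Their medians were -0.23 and -0.25 in the authors' deposited tables. Cdk1, the kinase that drives entry into mitosis, had the lowest values, -0.44 (SE 0.17, adjusted p = 0.0737) in AThi and -0.40 (SE 0.16, adjusted p = 0.108) in ATlo HSCs by the authors' DESeq2 test, with group levels of 221 in young, 164 in AThi and 168 in ATlo HSCs. Cdc25a, Cdc25b and Cdc25c, the phosphatases that switch on CDKs, lay between -0.25 and -0.11 in AThi and between -0.32 and -0.11 in ATlo HSCs in the authors' deposited tables. Ccnb2, a B-type cyclin, had the highest, 0.02 in both fractions in the authors' deposited tables. Cyclin A2 (Ccna2) and cyclin B1 (Ccnb1) stood at -0.26 and -0.08 in AThi HSCs, and at -0.28 and -0.11 in ATlo HSCs, in those deposited tables. A second, weaker Cdk1 peak, 1480 bp downstream of its start (chr10:69186952-69187262, mm39) and annotated as promoter, fell in AThi HSCs. Its group levels were 24.7 in young, 6.37 in AThi and 11.5 in ATlo HSCs, so young HSCs were highest. The authors' deposited table gave a log2 change of -1.96 (SE 0.50, adjusted p = 0.0022, DESeq2) in AThi HSCs, a level 3.88-fold lower, and the call was also made after centring on promoters of the same range (adjusted p = 0.00438). In ATlo HSCs it was -1.11 (SE 0.41, adjusted p = 0.0637), as listed by DESeq2 in the authors' deposited table. With it, the 45 promoter peaks of all members had 4 lower and 0 higher calls in AThi HSCs, and 6 lower and 0 higher in ATlo HSCs.

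The Aurora and Polo kinases and the chromosomal passenger complex, which correct chromosome attachment and steer cytokinesis, had all 6 promoters below 0 in both fractions and none past the test. The medians were -0.42 in AThi and -0.29 in ATlo HSCs in the authors' deposited tables. Birc5 (survivin, a passenger complex subunit) had the lowest values, -0.51 (SE 0.22) and -0.52 (SE 0.21), and its levels of 211 in young, 149 in AThi and 147 in ATlo HSCs were lower in both old fractions without passing the test. Plk1, the Polo kinase, had -0.44 (SE 0.17) in AThi but -0.06 (SE 0.16) in ATlo HSCs in those deposited tables, with levels of 170, 126 and 163 in young, AThi and ATlo HSCs. Incenp, the scaffold of the passenger complex, had -0.12 in AThi and -0.23 in ATlo HSCs in the authors' deposited tables. Aurka, Aurkb and Tpx2, the activator of Aurora A, lay between -0.47 and -0.22 in both fractions in these deposited tables.

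Within the spindle checkpoint, which holds anaphase until chromosomes are attached, only Ttk (the MPS1 kinase that starts the signal) passed the test, in AThi HSCs. Its promoter peak (chr9:83716127-83717234, mm39) had levels of 235 in young, 168 in AThi and 181 in ATlo HSCs. In the authors' deposited table its log2 change was -0.48 (SE 0.16, adjusted p = 0.0358, DESeq2) in AThi HSCs. In ATlo HSCs it was -0.37 (SE 0.16, adjusted p = 0.127, DESeq2, the authors' deposited table). Bub1, Bub1b and Bub3 were above 0 in AThi HSCs, at 0.03, 0.08 and 0.13, and below 0 in ATlo HSCs, at -0.25, -0.25 and -0.01, in the authors' deposited tables, none past the test. Mad2l1 had -0.19 and -0.15 in the same deposited tables.

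Nuf2, a subunit of the NDC80 complex that grips microtubules at the kinetochore, had the lowest value of the 40 promoters in both fractions. Its promoter peak (chr1:169358689-169360005, mm39) had levels of 161 in young, 96.9 in AThi and 97.5 in ATlo HSCs, alike in both old fractions and lower than in young HSCs. Its log2 changes in the authors' deposited tables were -0.73 (SE 0.23, adjusted p = 0.0192, DESeq2) in AThi and -0.73 (SE 0.23, adjusted p = 0.0198) in ATlo HSCs, levels 1.66-fold and 1.65-fold lower. After centring on promoters of the same range it was -0.60 (adjusted p = 0.0681) and -0.53 (adjusted p = 0.109) by the same Wald test. Its partners in the complex, Ndc80, Spc24 and Spc25, had -0.24, -0.21 and -0.40 in AThi HSCs, and -0.33, -0.21 and -0.39 in ATlo HSCs, in the authors' deposited tables, none past the test. Cenpa, the histone that marks centromeres, had -0.35 (SE 0.14, adjusted p = 0.107) and -0.39 (SE 0.14, adjusted p = 0.0559), DESeq2 values of the authors' deposited tables. Cenpe, a kinetochore motor, stood above 0 in both, at 0.18 (SE 0.18) and 0.21 (SE 0.17), and Cenpf below 0, at -0.30 and -0.24, in the same deposited tables.

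Among the motors and the genes of spindle and cytokinesis, Kif11 and Kif20a fell in ATlo HSCs. Kif11 is the motor that pushes spindle poles apart, and its promoter peak (chr19:37364039-37365155, mm39) had levels of 282 in young, 230 in AThi and 189 in ATlo HSCs. It changed by -0.29 (SE 0.17, adjusted p = 0.289) in AThi and by -0.57 (SE 0.17, adjusted p = 0.0110) in ATlo HSCs, DESeq2 values of the authors' deposited tables. Kif20a, a cytokinesis motor, had levels of 336, 261 and 239 in young, AThi and ATlo HSCs. Its log2 change in the authors' deposited tables was -0.36 (SE 0.17, adjusted p = 0.164, DESeq2) in AThi and -0.49 (SE 0.17, adjusted p = 0.0399) in ATlo HSCs. Kif2c, a kinesin that takes microtubules apart at centromeres, was the highest of the 40 in AThi HSCs. Its promoter levels were 146 in young, 193 in AThi and 145 in ATlo HSCs, highest in AThi HSCs. In the authors' deposited tables this was a log2 change of 0.40 (SE 0.18, adjusted p = 0.134, DESeq2) in AThi and -0.01 (SE 0.18, adjusted p = 0.983) in ATlo HSCs, neither past the test. Kif23, Prc1 and Nusap1, of the central spindle and spindle microtubules, lay between -0.29 and -0.21 in AThi and between -0.44 and -0.25 in ATlo HSCs in those deposited tables.

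Condensin, topoisomerase II and Ki-67 shape mitotic chromosomes, and all 4 of their promoter peaks were below 0 in both fractions. Mki67, which encodes the proliferation marker Ki-67, fell in both. Its promoter peak (chr7:135317361-135318761, mm39) had levels of 268 in young, 190 in AThi and 186 in ATlo HSCs. The authors' deposited tables gave -0.49 (SE 0.17, adjusted p = 0.0419, DESeq2) and -0.53 (SE 0.17, adjusted p = 0.0253), levels 1.41-fold and 1.44-fold lower. Top2a, whose promoter (chr11:98914398-98915901, mm39) is the one dense in CHR cores and CCAAT boxes shown above, had levels of 204 in young, 161 in AThi and 133 in ATlo HSCs. It had the smallest adjusted p of the 40 in ATlo HSCs, with a log2 change of -0.61 (SE 0.17, adjusted p = 0.0072, DESeq2) in the authors' deposited table. In AThi HSCs it was -0.34 (SE 0.17, adjusted p = 0.218, DESeq2, the authors' deposited table). The condensin subunit Ncapd2 (chr6:125168166-125169847, mm39) had levels of 399, 313 and 299 in young, AThi and ATlo HSCs. The change of Ncapd2 in the authors' deposited tables was -0.35 (SE 0.15, adjusted p = 0.111, DESeq2) in AThi and -0.42 (SE 0.14, adjusted p = 0.0423) in ATlo HSCs. Ncaph, another condensin subunit, had -0.38 (SE 0.23) and -0.29 (SE 0.23) in those deposited tables.

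The anaphase genes had all 4 promoters below 0 in both fractions and none past the test. Cdc20, the activator of the anaphase-promoting complex (APC/C), had -0.23 in AThi and -0.11 in ATlo HSCs in the authors' deposited tables. Ube2c, its ubiquitin-conjugating enzyme, had -0.15 and -0.20 there. Pttg1 (securin) had -0.10 (SE 0.18) and -0.40 (SE 0.18), and Espl1 (separase), which securin holds inactive, had -0.40 (SE 0.24) and -0.17 (SE 0.23) in the same deposited tables.

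**Figure D3:**
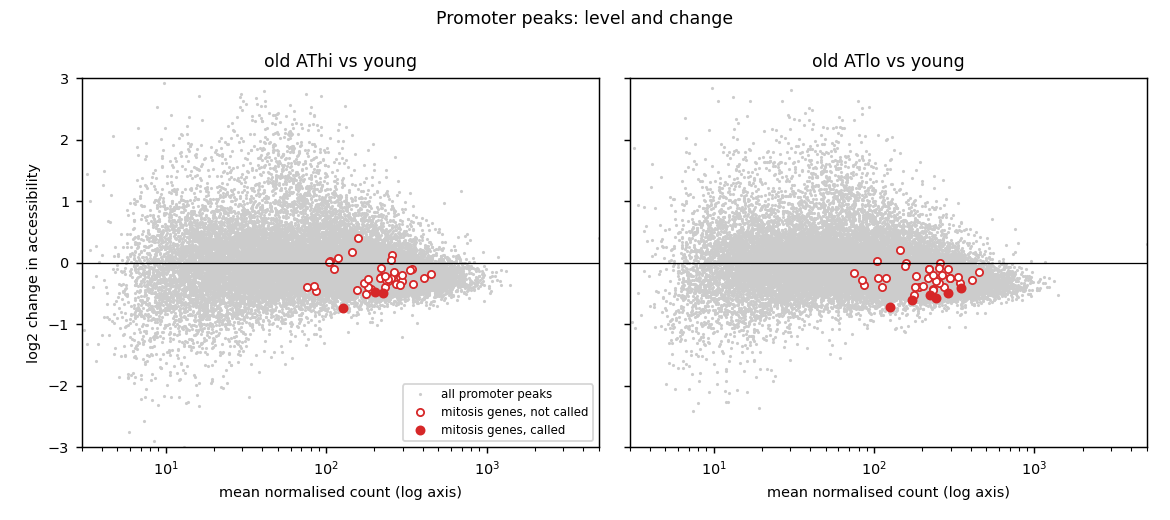
Log2 change in accessibility (y axis) against the mean normalised count (x axis, log scale) for all promoter peaks (grey) and the strongest promoter peak of 40 mitosis genes (red, filled where the adjusted p is under 0.05), in old AThi (left) and old ATlo HSCs (right) against young HSCs. The y axis stops at -3 and 3, and 14 and 10 promoter peaks lie outside the axes. The red points lie between 75.4 and 448 on the x axis, where the grey cloud is also centred below 0.

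Of the 7 members without a promoter peak, each had an end within 1 kb of the start of a neighbouring gene, and the peak there had been assigned to that gene. This reading was chosen after seeing the data. All 7 peaks were below 0 in both old fractions, with medians of -0.51 in AThi and -0.42 in ATlo HSCs in the authors' deposited tables, and 2 were called lower in each fraction. The peak at Smc2os, beside the condensin gene Smc2, had levels of 254 in young, 136 in AThi and 152 in ATlo HSCs. In the authors' deposited tables its log2 changes were -0.90 (SE 0.19, adjusted p = 7.38e-05, DESeq2) and -0.74 (SE 0.18, adjusted p = 0.00189). At 1600023N17Rik, beside the condensin gene Ncapg, the levels were 357, 215 and 268 in young, AThi and ATlo HSCs. That peak had a log2 change of -0.73 (SE 0.17, adjusted p = 0.000336, DESeq2) in AThi and -0.42 (SE 0.16, adjusted p = 0.0822) in ATlo HSCs in the authors' deposited tables. The peak at 1110059G10Rik, beside the spindle motor Kif15, had levels of 114, 76.6 and 67.4 in the same order. Its changes in the authors' deposited tables were -0.57 (SE 0.23, adjusted p = 0.0884, DESeq2) and -0.76 (SE 0.23, adjusted p = 0.0136). Foxm1 shares its region with Rhno1, where the changes were -0.51 (SE 0.19, adjusted p = 0.0655, DESeq2) and -0.40 (SE 0.18, adjusted p = 0.168) in the authors' deposited tables. The peaks at 9530077C05Rik beside Anln, Ift80 beside Smc4 and Pdzd11 beside Kif4 did not pass the test in either fraction. The peak cannot be divided between the neighbouring genes. With these 7 peaks, 5 of 47 promoters were called lower in AThi and 8 of 47 in ATlo HSCs, none higher, and the medians were -0.27 and -0.30. These are 10.6% and 17.0%, beside 5.63% and 8.21% of promoters of the same range called lower, and 7.38% and 5.04% called higher.

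Outside promoters the mitosis genes had 69 peaks, of which 42 were annotated as distal intergenic, 18 as intronic, 7 as exonic and 2 as in a 3′ UTR. The intron, exon or UTR can be that of another gene which the peak overlaps, as at peaks upstream of Kif23 and Aurkb. Called peaks numbered 2 higher and 4 lower in AThi HSCs, and 1 higher and 6 lower in ATlo HSCs, by the authors' DESeq2 calls, all of them distal intergenic. Of all peaks outside promoters, 7.71% were called higher and 2.19% lower in AThi HSCs, and 7.27% higher and 1.42% lower in ATlo HSCs. The shares of the 69 peaks were 2.90% higher and 5.80% lower in AThi, and 1.45% higher and 8.70% lower in ATlo HSCs. Assignment was to the nearest start site, so a distal peak may not act on the gene it is listed under.

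The lower distal peaks included neighbours of Aurkb, the Aurora kinase of the passenger complex, which had 6 peaks between 3.719 and 9.433 kb upstream of its start, all below 0 in both fractions. The strongest, 4227 bp upstream (chr11:68930818-68932236, mm39), had levels of 386 in young, 285 in AThi and 257 in ATlo HSCs, higher than the Aurkb promoter itself (100.0, 72.3 and 78.1). Its log2 change was -0.43 (SE 0.15, adjusted p = 0.0333, DESeq2) in AThi and -0.59 (SE 0.14, adjusted p = 0.00164) in ATlo HSCs in the authors' deposited tables. Of the other 5, the peak at 7618 bp fell in AThi HSCs (-1.07, SE 0.38, adjusted p = 0.0455) and those at 8474 bp (-1.08, SE 0.35, adjusted p = 0.0261) and 3719 bp (-0.91, SE 0.30, adjusted p = 0.0310) in ATlo HSCs, by the authors' deposited DESeq2 tables. None of the Aurkb calls was made after centring on promoters of the same range. After centring on all peaks, the ATlo calls at 8474, 4227 and 3719 bp were made (adjusted p = 0.0329, 0.00347 and 0.0404, same Wald test). The AThi calls at 7618 and 4227 bp were not (adjusted p = 0.0585 and 0.0650). Peaks outside promoters had a median log2 change of -0.01 in AThi and 0.01 in ATlo HSCs, unlike promoters of the same range.

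A peak 6703 bp upstream of Kif2c (chr4:117046524-117047866, mm39) fell in both fractions, whereas the Kif2c promoter did not. Its levels were 259 in young, 140 in AThi and 160 in ATlo HSCs. The authors' deposited tables gave -0.88 (SE 0.18, adjusted p = 5.67e-05, DESeq2) and -0.69 (SE 0.18, adjusted p = 0.0026), and both calls were also made after centring on promoters of the same range (adjusted p = 0.000873 and 0.0409). A peak 14007 bp downstream of the start of Pttg1 (chr11:43302184-43302801, mm39) had levels of 43.9, 22.4 and 23.4 in young, AThi and ATlo HSCs. That Pttg1 peak changed by -0.97 (SE 0.32, adjusted p = 0.0261, DESeq2) and -0.91 (SE 0.30, adjusted p = 0.0320) in the authors' deposited tables. Far upstream of Mki67, at 42.232 kb, a weak peak with levels of 13.8, 5.62 and 4.22 fell in ATlo HSCs (-1.71, SE 0.59, adjusted p = 0.0413 by DESeq2, the authors' deposited table). After centring on promoters of the same range, neither Pttg1 call was made (adjusted p = 0.0628 and 0.106, same Wald test), nor was that of this Mki67 peak (adjusted p = 0.0705). After centring on all peaks, both Pttg1 calls (adjusted p = 0.0359 and 0.0416) and the call of this Mki67 peak (adjusted p = 0.0473) were made.

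The higher calls were at 2 weak and distant peaks. A peak 108.979 kb from the start of Bub3 (chr7:131271202-131271892, mm39) had levels of 4.08 in young, 23.0 in AThi and 25.3 in ATlo HSCs. The log2 changes in the authors' deposited tables were 2.50 (SE 0.49, adjusted p = 1.78e-05, DESeq2) and 2.63 (SE 0.48, adjusted p = 3.32e-06), levels 5.64-fold and 6.20-fold higher. The promoter of Bub3 did not pass the test in either fraction. A peak 237.944 kb from the start of Nuf2 (chr1:169120541-169121089, mm39) had levels of 9.14, 24.8 and 16.7 in young, AThi and ATlo HSCs. It rose in AThi HSCs by 1.44 (SE 0.45, adjusted p = 0.0193, DESeq2) in the authors' deposited table, in the opposite direction to the Nuf2 promoter. In ATlo HSCs the distant Nuf2 peak had 0.87 (SE 0.46, adjusted p = 0.250, DESeq2) in the authors' deposited table. Cenpf had the most peaks of any member, 12, and none was called in any comparison. Over all 114 peaks, 17 peaks of 12 genes were called in at least 1 comparison, and 31 genes with a peak had none called. The 17 peaks are 14.9% of the 114, against 12.9% of all peaks called in any comparison, and the 12 genes are 27.9% of 43, against 38.2% of all genes with a peak.

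**Figure D4:**
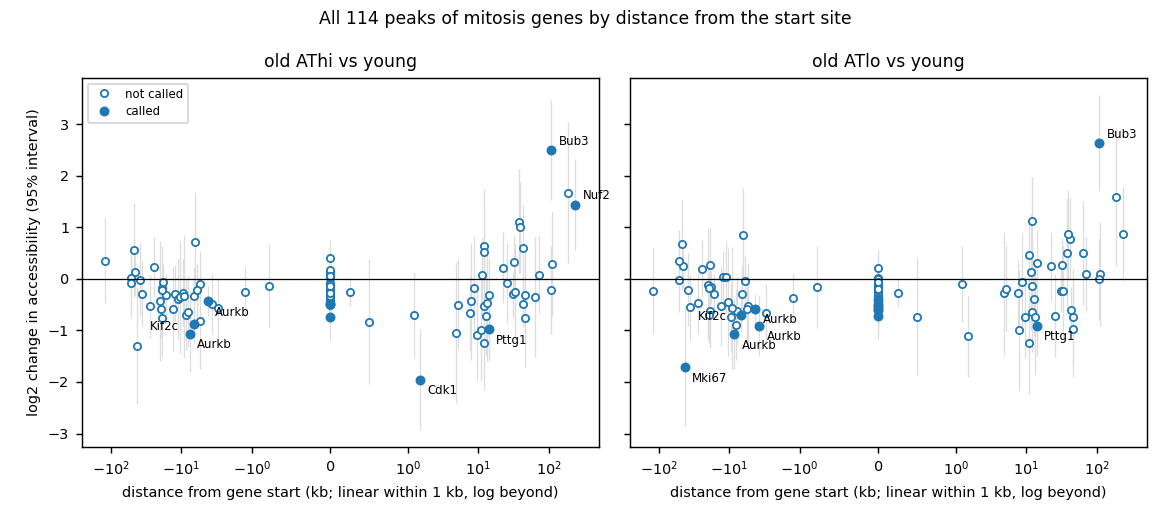
Log2 change in accessibility (y axis, bars 95% intervals) of all 114 peaks of mitosis genes against their distance from the gene start (x axis, kb, linear within 1 kb and logarithmic beyond), in old AThi (left) and old ATlo HSCs (right) against young HSCs. Filled points have an adjusted p under 0.05, and those away from the start carry the gene's name. The filled points above 0 are the peaks of Bub3 at 108.979 kb (both panels) and of Nuf2 at 237.944 kb (left panel).

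Between the old fractions no peak of a mitosis gene passed the authors' DESeq2 test, and neither did any other peak in that table (0% of 94410 peaks called). All adjusted p-values were 0.999998 in the authors' deposited table. At an unadjusted p under 0.05 there were 2 of the 40 promoters, and 1.78% of all peaks and 1.46% of promoters of the same range. Both percentages are below the share of 0.05 expected if no peak differed. Why they are low was not tested. The median log2 difference, AThi over ATlo, was 0.03 for the 40 promoters and 0.07 for promoters of the same range in the authors' deposited table. Kif2c was higher in AThi HSCs by 0.41 (95% interval 0.03 to 0.80, unadjusted p = 0.0347, DESeq2, the authors' deposited table). Plk1 was lower by 0.38 on the log2 scale (95% interval -0.75 to -0.01, unadjusted p = 0.0436, DESeq2, the authors' deposited table). Differences at the genes that fell in only 1 fraction were not shown. For Top2a the difference was 0.28 (95% interval -0.10 to 0.66), for Kif11 0.28 (-0.08 to 0.64) and for Ttk -0.11 (-0.47 to 0.25), each interval holding 0, from the authors' deposited table. For Kif20a the difference was 0.13 (-0.24 to 0.49) and for Ncapd2 0.07 (-0.24 to 0.38), with intervals that also hold 0. For Mki67 it was 0.03 (-0.34 to 0.41) and for Nuf2 -0.01 (-0.51 to 0.49) in that deposited table. The median SE at the 40 promoters was 0.19, so differences smaller than these intervals were not detectable by this test. Larger ones could also go uncalled, since the adjustment was over all 94410 peaks. Kif2c and Plk1, whose intervals do not hold 0, had an adjusted p of 0.999998 (DESeq2). Whether the authors' fit used the pairs of old libraries is not known. No paired test could be run, so the limit of such a test is unknown.

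**Figure D5:**
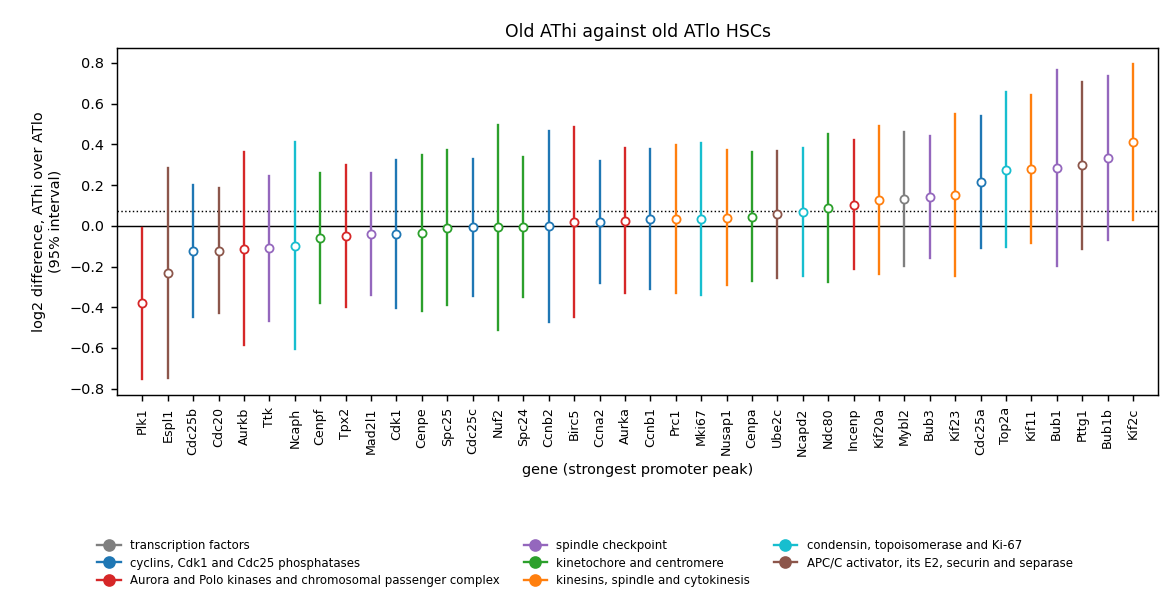
Log2 difference in accessibility between old AThi and old ATlo HSCs (y axis, AThi over ATlo, bars 95% intervals) at the strongest promoter peak of 40 mitosis genes (x axis, ordered by the difference, coloured by role). The dotted line is the median of promoters of the same range (0.07), and the intervals of Plk1 and Kif2c, at the ends, are those that do not hold 0.

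Other genes of the pathway, from lists of genes that are not members, were read at their strongest promoter peak. Of 52 further mitosis genes 44 had one, with medians of -0.28 in both fractions in the authors' deposited tables, 6 lower and 0 higher calls in AThi and 5 lower and 0 higher in ATlo HSCs. These lower calls are 13.6% and 11.4% of the 44, which had mean normalised counts of 40.3 to 847. Promoters of the same range as the members had medians of -0.13 and -0.19. Of them, 5.63% and 8.21% were called lower and 7.38% and 5.04% higher. Of all promoter peaks, 4.44% and 5.98% were called lower and 7.12% and 5.69% higher. Calls in these further lists are on the authors' scale, without centring. Cks2, a small CDK-binding protein, had log2 changes of -0.62 (SE 0.16, adjusted p = 0.0033, DESeq2) in AThi and -0.72 (SE 0.16, adjusted p = 0.0005) in ATlo HSCs in the authors' deposited tables. Knl1, the kinetochore scaffold of the checkpoint, fell by 0.59 (SE 0.19) and 0.69 (SE 0.18) in the same deposited tables. Sgo1 fell in AThi HSCs, Cks1b and Cenpk in both. Of 17 APC/C subunits and regulators 12 had a promoter peak, all below 0 in both fractions, with medians of -0.38 and -0.49 in the authors' deposited tables. Of the 12, 1 and 4 were called lower (8.33% and 33.3%). The shares were 5.63% and 8.21% of promoters of the same range, and 4.44% and 5.98% of all promoter peaks. Fbxo5, the APC/C inhibitor EMI1, fell in both fractions, at -0.45 (SE 0.15, adjusted p = 0.0296, DESeq2) and -0.52 (SE 0.15, adjusted p = 0.0079) in the authors' deposited tables. Anapc15, Cdc27 and Ube2s fell in ATlo HSCs only by this threshold, and the difference between fractions did not pass the test. Of 18 genes of the E2F, RB and MuvB regulators 17 had a promoter peak, with medians of -0.21 and -0.30 in the authors' deposited tables. They had 1 higher call in AThi and 1 lower call in ATlo HSCs, each 5.88% of the 17. Called higher in AThi HSCs were 7.38% of promoters of the same range and 7.12% of all promoter peaks. Called lower in ATlo HSCs were 8.21% and 5.98%, respectively. Rbl1, which encodes the DREAM pocket protein p107, rose in AThi HSCs by 0.70 (SE 0.21, adjusted p = 0.0141, DESeq2), and in ATlo HSCs it was 0.44 (SE 0.21, adjusted p = 0.184) in the authors' deposited tables. Rbbp4, a MuvB subunit, fell in ATlo HSCs by 0.50 (SE 0.14, adjusted p = 0.0087, DESeq2) in the authors' deposited table.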

How the data were processed

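ATAC-seq was made from 11 libraries of purified HSCs. Per the submitters' processing notes, reads were handled with BWA, cutadapt and Trim Galore, peaks with MACS2 and ChIPseeker, and counts with featureCounts and DESeq2 (no versions listed). How reads were shifted, duplicates removed and peaks merged, which sets where peaks lie, is not given in the sources used here. Deposited by the authors were 3 comparison tables over 94410 peaks, with 0 columns of values for single samples, and no model was refitted. The deposited mean normalised count is a signal value averaged over libraries. The authors' deposited log2 fold changes and SEs, the Wald statistic (a score, the change over its SE) and the p-values were used as they stand. Calls were at the authors' adjusted p under 0.05. Both tables against young HSCs left 1831 peaks without an adjusted p, none of a mitosis gene. All 3 tables came from 1 fit, since subtracting the ATlo from the AThi change gave the deposited AThi over ATlo change within 1.02e-14. The 95% intervals are 1.96 SE.

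The notes name GRCm38 and mm39. Only 273 of 20791 genes ended at the base given in the RefSeq GRCm38.p6 table, so peak coordinates were taken as mm39, 1-based. That table gave symbols for 20791 of 20810 gene identifiers and which genes neighbour each other. Centred values subtract a median log2 change (promoters of the same range -0.13 in AThi and -0.19 in ATlo, all peaks -0.04 and -0.03). The Wald test and Benjamini-Hochberg adjustment were recomputed in Python 3.11.15 with SciPy 1.17.1 and pandas 2.3.3. A check on simulated data covered a shift shared by all peaks and centring on all peaks, not centring on promoters of the same range. The alternatives were 2 other thresholds, adjustment over all peaks or promoters only, a mean of at least 10, 2 centrings and other sets of peaks. The members, lists and motifs were chosen with earlier results of these data known. Named genes were all members with a called peak, every other member by role (singly or within a range), and up to 4 called genes of each further list in each direction and comparison, by smallest p.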

Additional observations from a re-analysis of the deposited data

How the results depend on the processing

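No paired analysis was possible because the deposited tables hold no values per library. Fits that leave out a replicate or use the replicate block were therefore not run. Precision rests on the SEs, since the depth of each library is unknown.

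Over the 45 promoter peaks, lower calls in AThi HSCs went from 4 to 1 at an adjusted p under 0.01, 7 under 0.1, 1 after centring on promoters of the same range and 2 after centring on all peaks. Lower calls in ATlo HSCs went from 6 to 1 under 0.01 and to 0 after centring on promoters of the same range, where the median moved from -0.28 to -0.083. Higher calls in AThi HSCs went from 0 to 1 (Kif2c) under that centring. Counting all 114 peaks of the genes gave 8 lower and 2 higher in AThi and 12 lower and 1 higher in ATlo HSCs, because more peaks were counted. The other alternatives kept each count within 1.5 times and each median its direction, except the median between the old fractions, 0.03, which was -0.05 after centring on promoters of the same range and -0.01 over all peaks.

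Of 23 called values at single peaks, 6 were also called after centring on promoters of the same range and 17 after centring on all peaks, and none changed direction. Among all peaks, the same-range centring moved the share of calls that were higher from 73.4% to 89.5% in AThi and from 73.0% to 95.6% in ATlo HSCs.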
